A study of Mus musculus with 6 samples.

Results

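The genes described here encode the lysosome's proton pump, its membrane proteins and its acid hydrolases. They are 40 genes given by name: 14 subunits and accessory proteins of the vacuolar ATPase and 26 membrane proteins, hydrolases and their helper proteins. Each was read through its brightest probe set (highest mean over the 6 arrays) among those with a single gene symbol, and 38 of the 40 had one, out of 12393 genes read in this way. The V0 subunits Atp6v0c and Atp6v0d2 had none and are not reported.

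Lungs of 6 mice were compared at day 14, 1 Affymetrix MOE430A array per mouse. The 3 bleomycin lungs (D, E and F) came from mice given 1 mg/kg of the DNA-damaging drug bleomycin, instilled in 50 µl of saline, and the 3 saline lungs (A, B and C) from mice given saline. All 6 mice are labelled male wild-type C57BL/6J, aged 8 to 10 weeks. Bleomycin given this way causes inflammation and later scarring of the lung, and the series' title places these samples in the scarring phase. The design text names an oropharyngeal route and the sample labels an intratracheal one. RNA came from frozen, pulverised whole lung without the trachea and major airways, so more cells of a type and more RNA per cell cannot be told apart in any value below.

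Lysosomes break down proteins, glycans and lipids in an acid interior. The vacuolar ATPase acidifies them: its cytosolic V1 sector splits ATP and its membrane V0 sector carries protons. In the lung, macrophages are rich in lysosomes, and the lamellar bodies that store surfactant in type 2 alveolar cells are related organelles.

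The arrays had medians between 7.37 and 7.41 on the log2 scale, and since arrays have no read depth, their number limits the precision. Bleomycin D was less like the other bleomycin arrays than they were like each other, with Pearson correlations across probe sets of 0.986 with E and 0.988 with F, against 0.9945 between E and F. Among the saline arrays the correlations were 0.987 to 0.989. On saline B, the inactive-X transcript Xist stood at 11.40, against 7.23 to 7.88 on the other 5 arrays, and the Y-linked gene Eif2s3y at 4.05, against 7.23 to 8.02, so both genes go against that array's male label. Lung markers were present in both groups: Sftpc of type 2 cells averaged 14.16 ± 0.17 after bleomycin and 14.36 ± 0.03 after saline, and Scgb1a1 of club cells 14.12 ± 0.12 after bleomycin and 14.31 ± 0.11 after saline (SD, n = 3 each). The 3-prime minus 5-prime difference of the control probe sets, which grows as RNA degrades, was 1.18 ± 0.12 after bleomycin and 1.48 ± 0.30 after saline in Actb. In Gapdh it was 0.96 ± 0.15 after bleomycin and 1.24 ± 0.32 after saline. By the exact permutation test over arrays, two-sided, both gave p = 0.3, where 3 arrays against 3 cannot go below 0.1 (values are means ± SD over 3 arrays).

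At day 14 after bleomycin, 12 of the 38 genes had risen and 0 had fallen (limma, Benjamini-Hochberg adjusted p under 0.05 over all 22626 probe sets). At an unadjusted p under 0.05 the counts were 20 and 0, against 1456 and 1363 over all 12393 genes. At the adjusted threshold 5.6% of all genes were called, 3.7% higher and 1.9% lower. The genes that rose were mostly soluble enzymes: the phosphatase Acp5, 4.26-fold, the protease Lgmn, 3.04-fold, and the glycan hydrolases Gusb, 2.77-fold, Man2b1, 2.13-fold, Hexa, 1.74-fold, Neu1, 1.73-fold, and Glb1, 1.72-fold. Psap, the precursor of the saposins that help enzymes reach lipids, rose 2.32-fold. Smaller rises were called for the V0 subunits Atp6v0e, 1.54-fold, and Atp6v0d1, 1.46-fold, for Acp2, 1.52-fold, and for Laptm5, 1.48-fold. The median difference (bleomycin minus saline) was 0.30 log2 units over the 38 genes, against -0.04 over all genes. The difference was positive for 35 of them and negative for 3, against 5333 and 7060 over all genes. For 20 of the 38 genes all 3 bleomycin arrays lay above all 3 saline arrays and for 0 they lay below, where 13.3% of all genes lay wholly above and 14.6% wholly below. Of these 20 genes, 8 were not called.

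**Figure D1:**
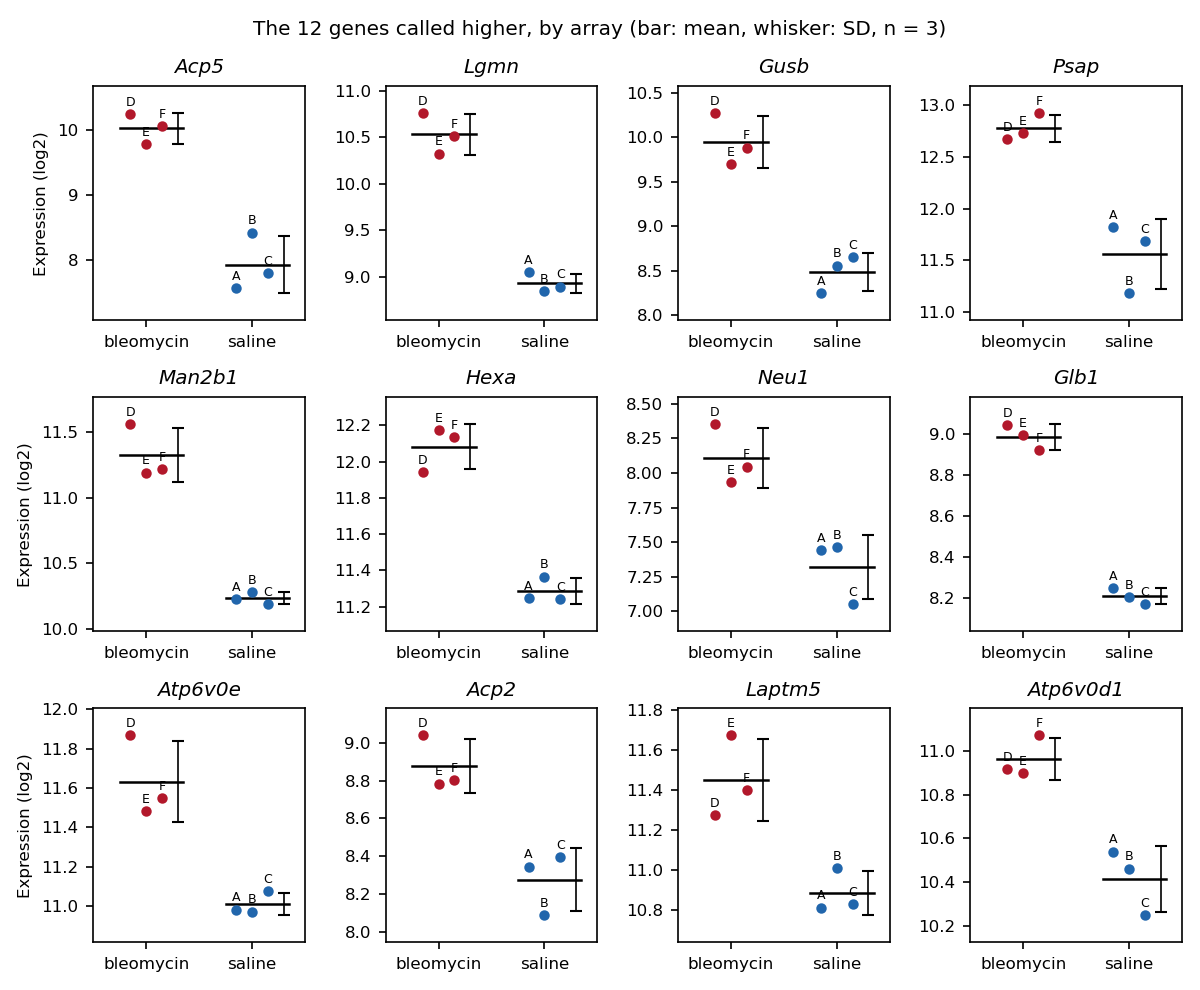
Expression (log2, each panel with its own vertical axis) of the 12 genes called higher, for the 3 bleomycin arrays (left, red) and the 3 saline arrays (right, blue), with the array letter over each point, the mean as a bar and the SD as a whisker. In every panel the bleomycin points lie above the saline points, from Acp5 with a difference of 2.09 log2 units to Atp6v0d1 with 0.55.

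Among the 8 glycan hydrolases, which act in the breakdown of glycan chains, 5 rose and 0 fell, also at an unadjusted p under 0.05. Gusb, the beta-glucuronidase, read 10.27, 9.70 and 9.88 log2 units on bleomycin D, E and F, against 8.24, 8.55 and 8.65 on saline A, B and C. The groups did not overlap, and bleomycin D was the highest array (difference 1.47 ± 0.17, SE, adjusted p = 0.0036). Man2b1, the lysosomal alpha-mannosidase, read 11.56, 11.19 and 11.22 after bleomycin, against 10.23, 10.28 and 10.19 after saline. Its saline arrays lay within 0.1 log2 units of each other and bleomycin D was again the highest (difference 1.09 ± 0.13, SE, adjusted p = 0.0035).

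Hexa, the alpha subunit of beta-hexosaminidase, read 11.94, 12.17 and 12.14 after bleomycin, against 11.25, 11.37 and 11.24 after saline (difference 0.80 ± 0.11, SE, adjusted p = 0.00769). Here bleomycin D was the lowest of its group and still above every saline array. Glb1 is the beta-galactosidase whose enzyme activity is stained to mark senescent cells. Its RNA read 9.04, 8.99 and 8.92 after bleomycin, against 8.25, 8.20 and 8.17 after saline (difference 0.78 ± 0.10, SE, adjusted p = 0.00547). The arrays of each group were close together for this gene, with SDs of 0.06 after bleomycin and 0.04 after saline (n = 3 each). Neu1, the lysosomal sialidase, read 8.35, 7.94 and 8.05 after bleomycin, against 7.44, 7.46 and 7.05 after saline (difference 0.79 ± 0.16, SE, adjusted p = 0.0302).

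The other glycan hydrolases did not pass. Manba, the beta-mannosidase, differed by 0.23 ± 0.12 (SE, adjusted p = 0.322). Gaa, the acid glucosidase that degrades glycogen, differed by 0.01 ± 0.14 (SE, adjusted p = 0.983), and Sgsh, the sulfamidase of heparan sulfate breakdown, by -0.08 ± 0.11 (SE, adjusted p = 0.738). The 95% intervals of limma ran from -0.32 to 0.34 for Gaa and from -0.34 to 0.18 for Sgsh. For Glb1 the interval was 0.55 to 1.01, and a difference between these genes was not tested. The other probe set of Gaa differed by 0.27 (adjusted p = 0.307).

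Of the 5 genes of lipid handling, 1 rose and 0 fell. Psap read 12.68, 12.73 and 12.93 after bleomycin, against 11.82, 11.18 and 11.68 after saline. The groups were well apart, with saline B the lowest array (difference 1.22 ± 0.17, SE, adjusted p = 0.00829). Gm2a, the activator protein that presents ganglioside GM2 to beta-hexosaminidase, read 10.09, 11.27 and 11.19 after bleomycin, against 10.51, 9.91 and 10.73 after saline. Its groups overlapped, because bleomycin D lay below saline A and C (difference 0.47 ± 0.32, SE, adjusted p = 0.448). Npc2, which hands cholesterol from the lumen to the membrane protein Npc1, read 13.57 to 13.78 after bleomycin and 13.58 to 13.75 after saline. Its difference was 0.05 ± 0.11 (SE, adjusted p = 0.82). Asah1, the acid ceramidase, differed by 0.15 (adjusted p = 0.55) and Ppt1, which removes palmitate from proteins, by 0.22 (adjusted p = 0.31).

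Lgmn, the asparaginyl endopeptidase legumain, which also matures cathepsins, had the smallest adjusted p of the 38 genes. It read 10.76, 10.32 and 10.51 after bleomycin, against 9.05, 8.84 and 8.89 after saline. The lowest bleomycin array stood over 1 log2 unit above the highest saline array (difference 1.60 ± 0.14, SE, adjusted p = 9.69e-04). Tpp1, a tripeptidyl peptidase, read 11.26, 11.39 and 11.13 after bleomycin, against 10.93, 10.44 and 10.96 after saline, without overlap but without passing (difference 0.49 ± 0.16, SE, adjusted p = 0.124). Grn, the precursor of progranulin and its granulins, differed by 0.29 ± 0.11 by its brightest probe set (SE, adjusted p = 0.183).

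Both acid phosphatases rose. Acp5, the tartrate-resistant phosphatase known from osteoclasts and some macrophages, had the largest difference of the 38 genes. It read 10.24, 9.77 and 10.05 after bleomycin, against 7.57, 8.42 and 7.80 after saline (difference 2.09 ± 0.22, SE, adjusted p = 0.00214). Saline B was the highest saline array and still lay over 1 log2 unit below bleomycin E, the lowest bleomycin array. Acp2, the general lysosomal phosphatase, read 9.04, 8.78 and 8.80 after bleomycin, against 8.34, 8.09 and 8.40 after saline (difference 0.60 ± 0.13, SE, adjusted p = 0.0376).

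The 8 membrane proteins had a median difference of 0.07 log2 units, and 1 of them rose. That was Laptm5, a lysosomal transmembrane protein of blood cells, with 11.27, 11.67 and 11.40 after bleomycin, against 10.81, 11.01 and 10.83 after saline (difference 0.57 ± 0.13, SE, adjusted p = 0.0497). At an unadjusted p under 0.05, 2 rose and 0 fell. The structural glycoproteins Lamp1 and Lamp2, which coat the inner face of the lysosomal membrane, were nearly level. Lamp1 read 12.35, 12.44 and 12.45 after bleomycin and 12.38, 12.30 and 12.40 after saline (difference 0.05, 95% interval -0.17 to 0.28, adjusted p = 0.801). Lamp2 read 11.51, 11.54 and 11.51 after bleomycin and 11.53, 11.43 and 11.49 after saline (difference 0.03, 95% interval -0.19 to 0.25, adjusted p = 0.881). In both genes the groups overlapped. The 3 dimmer probe sets of Lamp2 differed by 0.27 to 0.50 without passing.

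The signs of Lamp1 and Lamp2 are not settled: repeating the quantile normalization gave -0.07 and -0.05. Laptm4a, a small membrane protein of late endosomes, differed by 0.04 (adjusted p = 0.862), and by -0.04 when normalized again. Scarb2, the receptor that carries beta-glucocerebrosidase to lysosomes, differed by -0.05 by its brightest probe set (adjusted p = 0.846). The calcium channel Mcoln1 differed by 0.13 (adjusted p = 0.603), Cln3, the protein of juvenile Batten disease, by 0.26 (adjusted p = 0.228) and the cholesterol exporter Npc1 by 0.09 (adjusted p = 0.727). Cln3 was the single one of these 7 uncalled genes whose bleomycin arrays all lay above the saline arrays.

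**Figure D2:**
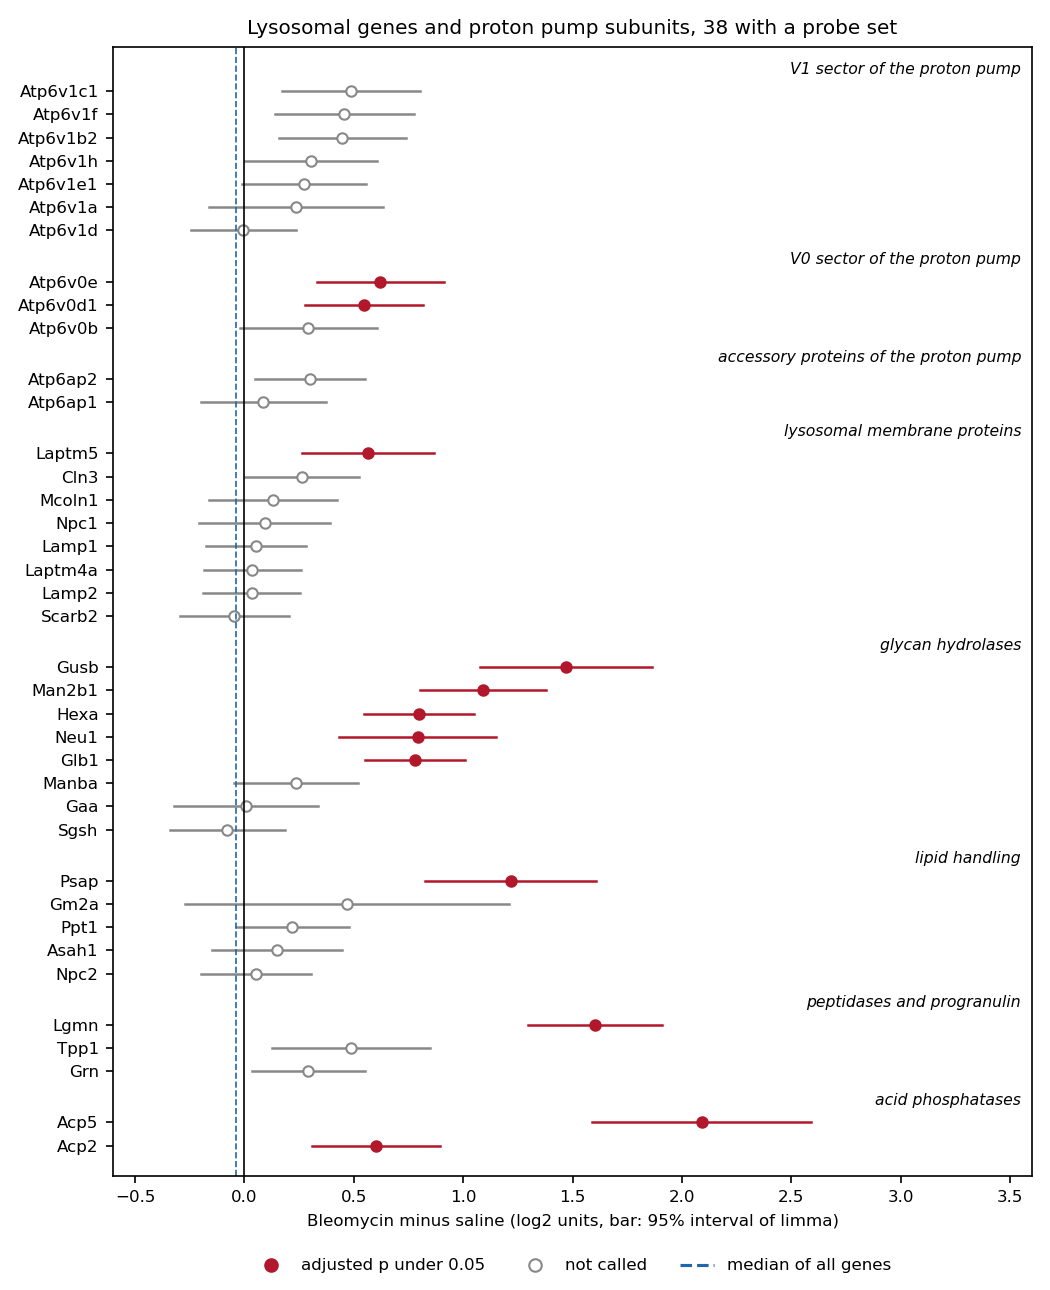
Difference between bleomycin and saline (log2 units) for each of the 38 genes with limma's 95% interval, grouped by role, with red filled points for genes called higher and the median of all genes as a dashed line. The 5 called glycan hydrolases lie between 0.78 and 1.47, and the uncalled Manba, Gaa and Sgsh between -0.08 and 0.23. Of the membrane proteins, Lamp1, Lamp2, Laptm4a and Scarb2 lie between -0.05 and 0.05. Laptm5, Cln3, Mcoln1 and Npc1 lie between 0.09 and 0.57. A difference between roles was not tested.

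Of the 12 measured proton pump genes, 2 rose and 0 fell, and 7 were higher and 0 lower at an unadjusted p under 0.05. Their median difference was 0.30 log2 units. The called genes belong to the V0 sector, of whose 5 listed genes 3 were measured. A difference between the V0 and V1 sectors was not tested. Atp6v0e, its small e subunit, read 11.87, 11.48 and 11.55 after bleomycin, against 10.98, 10.97 and 11.08 after saline (difference 0.62 ± 0.13, SE, adjusted p = 0.0333). Atp6v0d1, the d subunit that links the sectors, read 10.92, 10.90 and 11.07 after bleomycin, against 10.54, 10.46 and 10.25 after saline (difference 0.55 ± 0.12, SE, adjusted p = 0.0391). Neither gene overlapped between groups. Atp6v0b, a proton-carrying ring subunit, differed by 0.29 (adjusted p = 0.267).

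In the V1 sector 0 of 7 genes were called by limma, and 4 were higher and 0 lower at an unadjusted p under 0.05. Atp6v1c1, a stalk subunit, read 10.50, 11.00 and 10.70 after bleomycin, against 10.28, 10.22 and 10.24 after saline (difference 0.49 ± 0.14, SE, adjusted p = 0.0865). Atp6v1b2, the nucleotide-binding B subunit, differed by 0.45 ± 0.13 (SE, adjusted p = 0.0852) and Atp6v1f by 0.46 ± 0.14 (SE, adjusted p = 0.107). These are the 3 V1 genes whose groups did not overlap. Atp6v1h, a regulator of the sector, differed by 0.30, the stalk subunit Atp6v1e1 by 0.27, the catalytic A subunit Atp6v1a by 0.24 and the rotor subunit Atp6v1d by -0.01, with adjusted p between 0.231 and 0.982. Of the accessory proteins, Atp6ap2, also known as the prorenin receptor, read 12.10, 12.17 and 12.08 after bleomycin, against 11.97, 11.74 and 11.74 after saline. Its groups did not overlap (difference 0.30 ± 0.11, SE, adjusted p = 0.162). Atp6ap1 differed by 0.09 (adjusted p = 0.73).

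Promoters were examined because many lysosomal genes carry the element read by the transcription factor TFEB and its relatives, whose core is the hexamer CACGTG and whose extended form holds TCACGTGA. Both read the same on the other strand, and each longer match also counts as a shorter one. RefSeq promoters of GRCm38.p6 (250 bases before to 50 after the start) were at hand for 33 of the 38 genes, and Atp6v1b2, Atp6v1c1, Atp6v1h, Npc1 and Asah1 had none. Of the 38 promoters of these 33 genes, 11 (28.9%) held CACGTG and 5 (13.2%) held TCACGTGA. Among 77 promoters of the other lysosome genes listed below the shares were 18.2% and 7.79%. Among all 12559 promoters of genes on the array they were 9.11% and 1.47%, and among all 32851 RefSeq promoters at hand 7.15% and 0.974%. By gene, 4 of the 12 called genes and 7 of the 21 uncalled genes held CACGTG in a promoter, 33.3% of each.

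Below are stretches from 100 bases before to 25 after the start, 5′ to 3′ on the gene's strand, with the matches in capitals. The first 4 are the called genes with a match, and the last 3 are uncalled genes with several matches in this stretch, shown because the motif stands in promoters of both kinds of gene.
Atp6v0d1 (chr8:105566040-105566164, minus strand): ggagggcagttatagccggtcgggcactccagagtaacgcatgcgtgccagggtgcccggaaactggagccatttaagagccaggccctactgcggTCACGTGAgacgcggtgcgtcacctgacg
Atp6v0e (chr17:26676296-26676420, plus strand): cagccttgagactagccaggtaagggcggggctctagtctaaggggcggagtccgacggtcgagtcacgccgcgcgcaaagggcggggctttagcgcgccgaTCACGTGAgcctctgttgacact
Glb1 (chr9:114400978-114401102, plus strand): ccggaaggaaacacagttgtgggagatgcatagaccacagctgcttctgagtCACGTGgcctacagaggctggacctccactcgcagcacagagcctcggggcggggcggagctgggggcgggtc
Lgmn (chr12:102439068-102439192, minus strand): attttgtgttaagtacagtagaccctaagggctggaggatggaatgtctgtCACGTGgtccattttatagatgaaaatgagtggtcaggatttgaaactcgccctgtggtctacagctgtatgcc
Lamp1 (chr8:13159061-13159185, plus strand): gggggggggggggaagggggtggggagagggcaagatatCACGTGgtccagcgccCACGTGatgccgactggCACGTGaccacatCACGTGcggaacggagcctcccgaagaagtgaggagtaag
Mcoln1 (chr8:3500419-3500543, plus strand): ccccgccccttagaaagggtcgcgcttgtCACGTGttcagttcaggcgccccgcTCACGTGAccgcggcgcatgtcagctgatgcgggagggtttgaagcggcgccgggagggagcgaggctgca
Atp6v0b (chr4:117887305-117887429, minus strand): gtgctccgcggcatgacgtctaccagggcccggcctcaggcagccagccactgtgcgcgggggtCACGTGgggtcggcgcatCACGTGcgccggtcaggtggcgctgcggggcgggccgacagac

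The match is TCACGTGA in Atp6v0d1 and Atp6v0e and in 1 of the 2 matches of Mcoln1. Its inner CACGTG starts 3 bases before the start of Atp6v0d1 and at base 4 after that of Atp6v0e. Lamp1 holds 4 matches of CACGTG within 61 bases of its start, while its expression differed by 0.05 log2 units. Acp5, Gusb, Psap and Man2b1, among the largest rises, had none of these letters in the windows examined, which says nothing about other stretches. Lgmn had the match in 1 of its 2 promoters.

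Probe sets of the same gene did not always move alike. Of the 38 genes, 23 had further probe sets. The called genes Acp5, Lgmn, Hexa, Glb1, Atp6v0e and Atp6v0d1 had none, so their rises rest on 1 probe set each. Psap rose by 1.71 in its other probe set, Gusb by 1.69, and Laptm5 by 0.61 and 0.79 in its 2 others. Acp2 rose by 0.53 in 1 of its others and differed by 0.12 in the remaining one. The other probe set of Man2b1 differed by -0.11 (adjusted p = 0.642), and the 2 others of Neu1 by -0.06 and -0.02. The rises of Man2b1 and Neu1 therefore also rest on 1 probe set each. Conversely, a dimmer probe set passed for 5 uncalled genes. Grn rose by 0.86 there (adjusted p = 0.0146), Scarb2 by 0.70 (adjusted p = 0.0114), against -0.05 by its brightest, Ppt1 by 0.60, Atp6v1b2 by 0.57 and Atp6ap2 by 0.50. Averaging the probe sets of each gene gave 13 called genes: Grn, Ppt1 and Atp6v1c1 were added, and Neu1 and Acp2 lost.

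**Figure D3:**
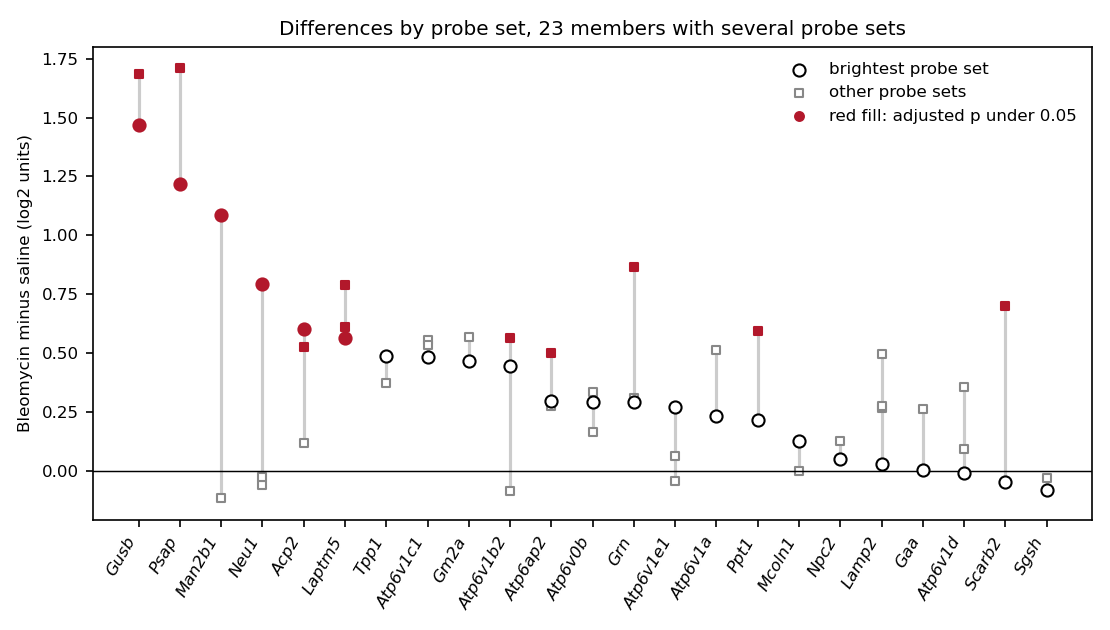
Difference between bleomycin and saline (log2 units) for each probe set of the 23 genes with several, circles for the brightest probe set, which was used, and squares for the others, filled red where the adjusted p was under 0.05. Psap and Gusb pass in both of their probe sets, while Man2b1 and Neu1 pass in the brightest alone, and Grn and Scarb2 in a dimmer one.

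The calls of Acp5, Lgmn, Gusb, Psap, Man2b1, Hexa and Glb1 held in all 6 fits that left out 1 array, with adjusted p up to 0.0422. Those of Atp6v0d1, Acp2 and Laptm5 held in none. Atp6v0e passed only without bleomycin E, and Neu1 only without bleomycin E or saline B. Without bleomycin D, 7 genes were called, and without saline B 8, while the median difference was 0.37 and 0.24 in those fits. Without saline A, saline C or bleomycin F 7 were called in each, and without bleomycin E 9. Calls also dropped over all 12393 genes, where 458 were higher with all 6 arrays. There 299 were higher without bleomycin D, 385 without bleomycin E and 211 without bleomycin F. Without saline A, B or C, 163, 306 and 266 were higher. Centred on ribosomal protein genes, the arrays gave 8 called genes, with Atp6v0e, Atp6v0d1, Acp2 and Laptm5 lost.

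**Figure D4:**
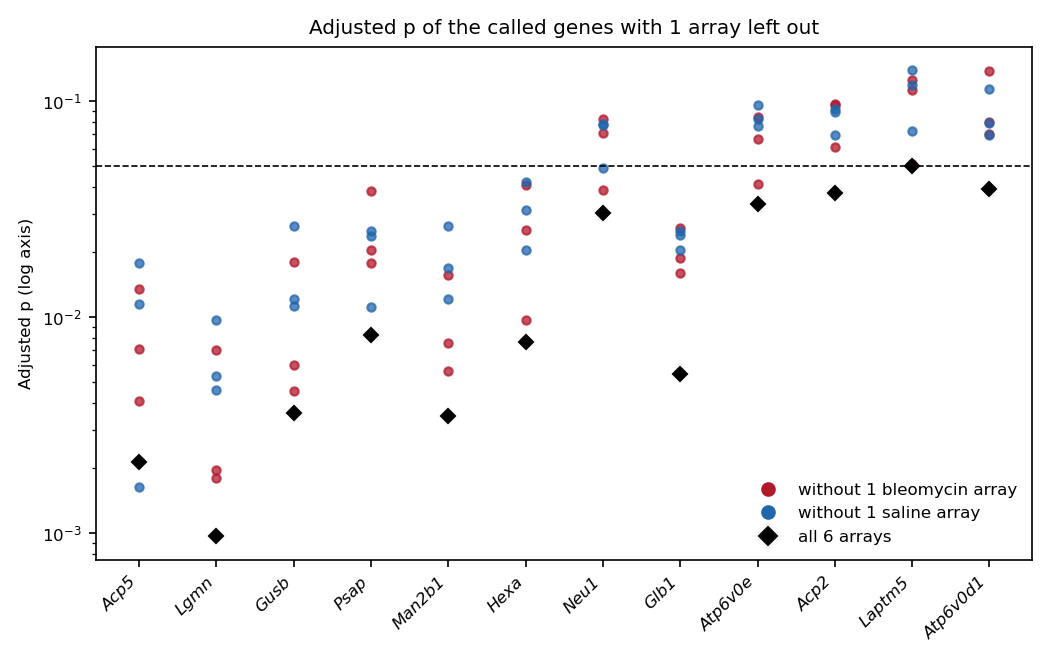
Adjusted p (log axis) of the 12 called genes with all 6 arrays (black diamonds) and with 1 bleomycin (red) or 1 saline array (blue) left out, with the threshold of 0.05 as a dashed line. All points of Acp5, Lgmn, Gusb, Psap, Man2b1, Hexa and Glb1 lie under the line, and all left-out points of Acp2, Laptm5 and Atp6v0d1 lie above it.

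Bleomycin D was the highest bleomycin array for 8 of the 12 called genes and the lowest for 3. Among the 26 uncalled genes it was the highest for 7 and the lowest for 16. Over all 458 genes called higher D was the highest of the group in 65.1% and the lowest in 15.3%. Over all uncalled genes it was the highest in 40.6% and the lowest in 37.3%.

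Other lysosome genes were described through 6 lists with 80 measured genes, of which 21 rose and 1 fell. The 12 cathepsins, the lysosomal proteases, had 8 that rose and 0 that fell, also 0 at an unadjusted p under 0.05. Ctsk rose 3.53-fold, Ctsd 2.86-fold, Ctss 2.75-fold and Ctsz 2.14-fold (Ctsz with an adjusted p of 0.058 without saline A). Of 19 further hydrolases 6 rose and 0 fell. Gla, the alpha-galactosidase, rose 3.38-fold, with 0.18 log2 units in its other probe set. The cholesteryl ester lipase Lipa rose 2.38-fold, the phospholipase Pla2g15 2.10-fold and the peptidase Scpep1 1.67-fold, the last with an adjusted p of up to 0.067 with 1 array left out (without saline A, saline C or bleomycin F it did not pass).

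Of 14 further membrane proteins and transporters, 4 rose and 0 fell: the macrophage protein Cd68, 6.43-fold, Litaf, 2.23-fold, the metal transporter Slc11a1, 1.88-fold, and the nucleoside transporter Slc29a3, 1.56-fold. Slc11a1 did not pass without bleomycin D or F (adjusted p up to 0.0593). Slc29a3 passed only without bleomycin D, and its other probe set differed by -0.10. Of the 10 further pump subunits, 0 rose and 1 fell, and 1 was higher and 2 lower at an unadjusted p under 0.05. Atp6v1c2, an isoform of the C subunit, read 8.33, 8.66 and 8.30 after bleomycin, against 9.56, 9.44 and 9.37 after saline (difference -1.03 ± 0.13, SE, adjusted p = 0.00498), and its call held with each array left out. Its ubiquitous counterpart Atp6v1c1, given above, differed by 0.49.

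Of 12 genes that sort enzymes to the lysosome, 1 rose and 0 fell. It was Gnptab, with a rise of 0.58 log2 units, the enzyme that starts the mannose 6-phosphate tag (it passed only without bleomycin D or saline B among the fits with 1 array left out). The tag's receptors M6pr and Igf2r differed by 0.29 (adjusted p = 0.375; 0.71 in the other probe set of M6pr) and -0.08 (adjusted p = 0.832). Of 13 genes of lysosomal regulation, 2 rose and 0 fell. Both are relatives of Tfeb: Tfec, 2.49-fold, with a call that held in all 6 such fits, and Mitf, 1.61-fold, which passed only without saline C and differed by -0.15 in its other probe set. Tfeb itself differed by -0.09 ± 0.13 (SE, adjusted p = 0.724). M6pr, Igf2r and Tfeb were named after their values were seen.

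Macrophage markers were also mostly higher after bleomycin. Of 16 measured markers, 12 rose and 0 fell, with a median difference of 1.22 log2 units. They include Cd68, which also stands in the list of membrane proteins above. Their summed level was 14.23 to 14.43 after bleomycin and 12.90 to 13.21 after saline (log2 of the sum over probe sets). C1qb rose 10.7-fold, C1qc 6.70-fold, C1qa 5.42-fold, Itgax 3.50-fold and Adgre1 2.38-fold. Csf1r (0.27), Mertk (0.03), Marco (0.46) and Siglecf (0.44) did not pass by the probe set used. The 2 other probe sets of Csf1r differed by 0.67 and 0.69, and both passed. Markers of type 2 cells had 0 of 8 called in either direction by limma, also at an unadjusted p under 0.05, and a summed level of 15.82 to 16.14 after bleomycin and 16.09 to 16.15 after saline. Neutrophil markers likewise had 0 of 6 called and 0 at an unadjusted p under 0.05. Of 7 fibroblast markers 4 rose and 1 fell. In the lists for type 1 alveolar, airway epithelial and endothelial cells 1 gene fell in each and 0 rose. Of 5 B and plasma cell markers 1 rose, Jchain of secreted antibodies, 5.16-fold, with a call that held with each array left out. Of 5 heart muscle markers 0 were called by limma, while all 5 had negative differences and 3 were lower at an unadjusted p under 0.05. The part of these cell types in the lysosomal differences was not tested.

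**Figure D5:**
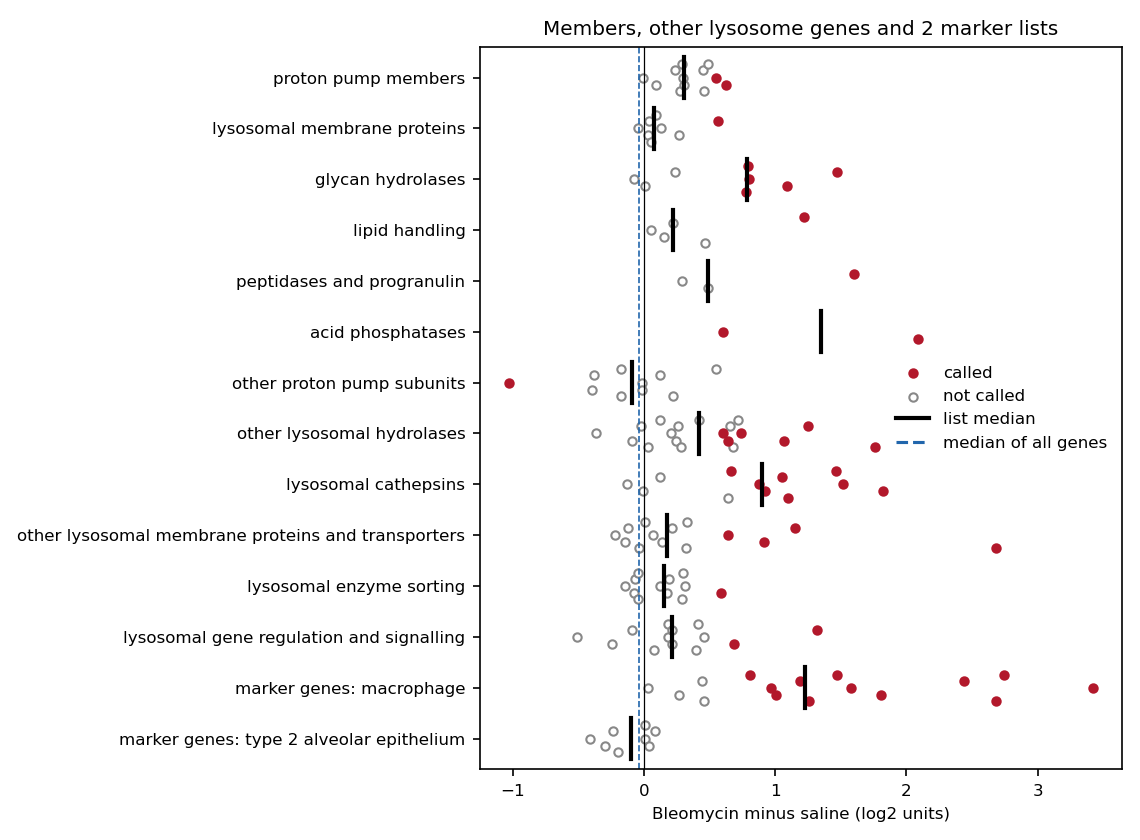
Difference between bleomycin and saline (log2 units) for the 38 genes by role (the top 6 rows), for 6 lists of other lysosome genes and for 2 marker lists, with called genes in red, list medians as black bars and the median of all genes as a dashed line. The cathepsins (median 0.90), glycan hydrolases (0.79) and macrophage markers (1.22) lie mostly to the right. The medians of the further pump subunits (-0.10) and type 2 markers (-0.10) lie near 0. Single further pump subunits ranged from -1.03 (Atp6v1c2) to 0.55.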

How the data were processed

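RNA of 6 mouse lungs was measured on 6 Affymetrix MOE430A arrays, 3 per group. The deposited values are log2 expression per probe set, which the authors made by RMA with quantile normalization, per the design text of the series. The version of RMA is not given in the sources used here. No value exceeds 14.42, which fits a log2 scale. Scanner values, detection calls and dates were not analysed here, so neither signal over background nor batches could be examined.

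Of 22690 probe sets, 64 controls were dropped and 22626 tested. GEO's platform annotation listed 1 symbol for 20380 probe sets, several for 691 and none for 1555, and 20351 of the first kind matched RefSeq (GRCm38.p6) by Entrez ID. The comparison was fitted with limma 3.58.1 (lmFit and eBayes, no covariates, R 4.3.3), and Benjamini-Hochberg adjustment ran over the 22626 probe sets at a threshold of 0.05. Differences are bleomycin minus saline, with limma's SE. The code was tested on simulated data. Figures were drawn with matplotlib 3.10.9 under Python 3.11.15.

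The members, roles and lists were chosen with earlier results of these data known. Named with values for each array were the called members, the member of each role with the largest difference, and further members chosen after their values were seen. From each other list up to 4 called genes with the largest differences were named, along with macrophage and type 2 markers. Alternatives were a dim filter, another variance prior, array weights, 2 scalings (one centred on 16 ribosomal protein genes, a shift of 0.0499), 2 choices of probe set, 2 thresholds and leaving out each array.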

Additional observations from a re-analysis of the deposited data

How the results depend on the processing

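The 12 genes called higher stayed within 1.5 times that count under the dim filter (12), the trended robust prior (12), array weights (13), ribosomal centring (8), repeated quantile normalization (10), mean probe sets (13), the probe set brightest in saline (12) and a threshold of 0.10 (14). They were 7 at a threshold of 0.01 and 7 to 9 with 1 array left out, and 0 were called lower in any setting. The median difference lay between 0.24 and 0.37 in all settings. Among the 80 other lysosome genes, 21 were higher, 12 at a threshold of 0.01 and 13 to 21 when a single array was dropped, the fewest without saline A. The count of 1 lower was 2 with array weights and 2 at a threshold of 0.10. Over all genes, 458 were higher and 236 lower, against 599 and 341 with array weights, 364 and 169 with ribosomal centring, 163 and 22 without saline A, and 211 and 62 without bleomycin F. Fits with 1 array left out have fewer samples.

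The signs that turned belong to uncalled genes with small differences, and the cause was not tested. With array weights Scarb2 was at 0.0109. Ribosomal centring gave Lamp2 -0.0177, Laptm4a -0.0134 and Gaa -0.0426, and repeated normalization gave Atp6ap1 -0.0064, Lamp1 -0.0664, Lamp2 -0.0498, Laptm4a -0.0379 and Gaa -0.0378. Mean probe sets gave Atp6v1d 0.1486 and Scarb2 0.3278. When a single array was dropped, Atp6v1d ranged from -0.0559 to 0.0346, Atp6ap1 from -0.0164 to 0.1739, Scarb2 from -0.1074 to 0.0043, Npc1 from -0.0024 to 0.1782 and Gaa from -0.0716 to 0.1344. No paired analysis was possible because each array has its own letter. The number of arrays limits what could be detected, and signal over background could not be examined.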
